A study of Mus musculus with 10 samples.

Results

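The lungs of 4 control C57BL/6J mice, aged 2 weeks, are described here by the signal of each gene on the array and by the spread between the 4 arrays. They are the controls of a series of 10 arrays, and were chosen by the titles that label them as control lungs 1 to 4. The other 6 arrays, from lungs exposed to cigarette smoke, were not used in any step. Each array held RNA from the lung of 1 mouse. The mice came from the Jackson Laboratory and breathed filtered air, apart from the exposed animals. They carried no transgene or other allele that the labels name, and their sex is given as unknown. No litter, harvest time or array batch is given, so spreads are those between these 4 arrays and may be partly technical.

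At this age the mouse lung is dividing its sacs into alveoli. Ridges called septa grow out from the walls; their tips carry elastin laid down by myofibroblasts, and a net of capillaries lies beneath. The alveolar surface is lined by thin type 1 cells, across which gas passes, and by type 2 cells, which make surfactant. The airways are lined by club cells, which secrete protective proteins, and by ciliated cells, which move mucus. Endothelium, fibroblasts, pericytes and resident macrophages make up most of the rest.

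Total RNA was amplified, labelled and hybridised to Affymetrix Mouse 430 2.0 arrays, which read each transcript with 1 or more sets of short probes. The deposited values are intensities, 1 for each probe set and array. Each gene is read here by its brightest probe set on average, among those that carry a single symbol, which gave 18193 genes from 34945 probe sets. For each gene the intensities are given in the order of control arrays 1 to 4. SD is on the log2 scale after quantile normalization of the 4 arrays, with n = 4 throughout. A percentile is the gene's place among all 18193 genes by mean log2 value. Probe sets differ in how brightly they bind, so a percentile ranks signal and not the number of transcripts. In a whole lung, fewer cells of a type and less RNA per cell cannot be told apart.

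The arrays were close in overall signal and differed in a few groups of genes. The pairs correlated at 0.945 to 0.955 over all probe sets, and no pair held identical values. Array 4 had an actin 3′ to 5′ ratio of 3.96, against 9.28 to 10.4 on the other arrays; a higher ratio means that less signal comes from the 5′ end of the transcript. The ratios for Gapdh were 4.82 to 5.89. Array 1 stood apart in genes of oesophagus and skeletal muscle, array 2 in fat genes, and arrays 3 and 4 in secretory genes, as described below. The medians that follow differed little when any 1 array was left out: 68.5 to 71.5 for epithelial, 89.0 to 89.9 for vascular, 78.6 to 79.5 for mesenchymal and 46.5 to 47.3 for immune markers.

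Several of the brightest probe sets belonged to the machinery that all cells share, and a few to markers of lung cell types. Of the 30 probe sets with the highest mean, 14 had 1 symbol, 13 several and 3 none, and the 14 named 12 genes. Gsn, which encodes the actin-severing protein gelsolin, ranked 1, with intensities of 24049.7, 28304, 25736 and 21296. The ribosomal protein genes Rpl38, Rps29, Rps18, Rpl37a and Rpl35 were among the 12, as were Tmsb4x, which encodes an actin-binding peptide, Uqcrb, a subunit of the respiratory chain, and Tpt1. The remaining 3 were members of the cell type lists. Scgb1a1, the main secretory protein of club cells, ranked 7 of all genes (17 of probe sets), with intensities of 19400.2, 22794, 22192 and 17486. Col3a1, a fibrillar collagen of fibroblasts, ranked 9 of all genes (22 of probe sets), at 18860.2, 24456, 20025 and 17005. Ager, a receptor found mainly on alveolar type 1 cells, ranked 10 of all genes (27 of probe sets), at 18809.8, 21893, 20117 and 16990.5. Before normalization all 3 were brightest on array 2 and dimmest on array 4. Afterwards the SD of the 30 probe sets lay between 0.0051 and 0.16. Their intensities ran only from 16635 to 28304, so the order within them rests on small differences.

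Among the 100 genes with the highest mean, 24 had numbered symbols of ribosomal proteins and 3 encoded subunits of the respiratory chain. The ribosomal gene Rpsa, ranked 37, has no number in its symbol and was not counted. The epithelial lists contributed 7 of the 100, the vascular, mesenchymal and immune lists 2 each, and the interferon-induced list 2. The 49 ribosomal protein genes with a numbered symbol and their own probe set had a median percentile of 99.4 and a median SD of 0.12. The 94 genes picked by symbol for the respiratory chain and ATP synthase had a median percentile of 93.9 and a median SD of 0.21. Picked in this way, they may include assembly factors.

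To set a level for signal, 35 of 38 listed genes of tissues outside the chest, such as pancreas, retina, testis, brain, kidney, liver and pituitary, were used. Their median log2 value was 6.30. The level was set at the 90th percentile of this list, a log2 value of 7.58 or an intensity of 191. Of all genes, 9767 lay above it on every array, which is 53.7%. The highest of the list were the liver genes Apoh and Cyp3a11 and the oocyte gene Gdf9, at percentiles of 50.3, 43.1 and 44.6. Apoh gave 155, 396, 400.2 and 298, so signal up to this size was found in genes that are not markers of lung.

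Vascular markers had the highest median percentile of the 4 compartments, at 89.3, followed by mesenchymal markers at 79.3, epithelial markers at 70.3 and immune markers at 47.5. Above the level on every array, against 53.7% of all genes, lay 40 of 44 vascular, 36 of 50 mesenchymal, 53 of 77 epithelial and 46 of 94 immune markers. The immune share was thus near that of all genes. With the mean of a gene's probe sets in place of the brightest, epithelial markers, at 80.6, lay above mesenchymal markers, at 75.9. Without probe sets ending in _x_at or _s_at, they did so too, at 71.6 against 64.9. The places of vascular markers as highest and immune markers as lowest were kept under both. The epithelial median averages over very different cell types, since alveolar and club markers lay near the top and basal, goblet and neuroendocrine markers near the bottom. The lists were chosen, not sampled, so a median also depends on which markers a list holds.

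**Figure D1:**
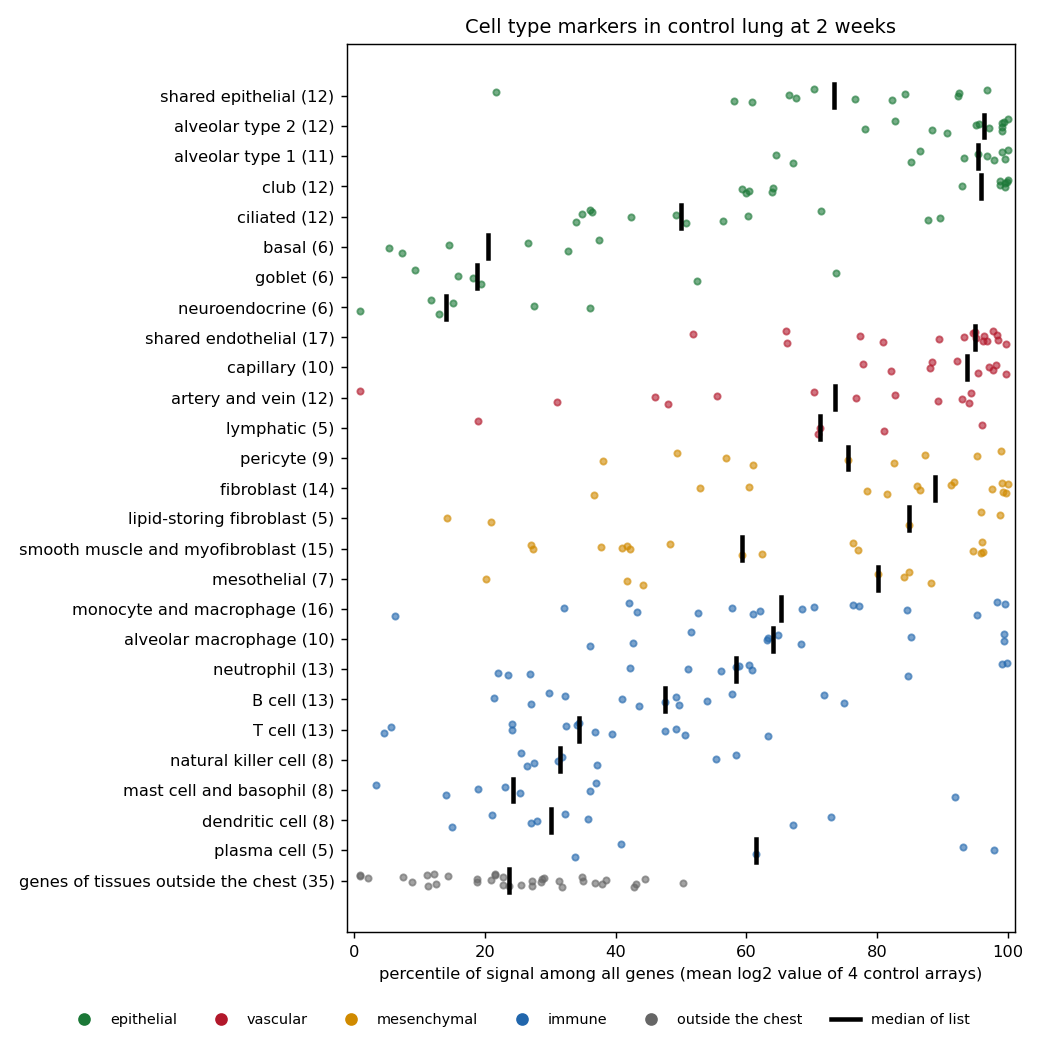
Each point is 1 marker gene, placed on the horizontal axis by its percentile of signal among all 18193 genes (mean log2 value of the 4 control arrays); rows are marker lists, with the number of measured genes in brackets, and black bars are list medians. Alveolar type 2, club, alveolar type 1 and shared endothelial markers have medians of 94.9 to 96.3, and the genes of tissues outside the chest a median of 23.7.

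Alveolar type 2 markers had a median percentile of 96.3, the highest of the cell type lists when a gene is read by its brightest probe set. Club markers were higher with the mean of a gene's probe sets, at 98.6 against 94.2, and without probe sets ending in _x_at or _s_at, at 99.1 against 96.4. All 12 measured genes of the 13 listed lay above the level. Sftpc, the surfactant protein that is made only by these cells in the adult lung, ranked 13 of all genes, with intensities of 17795, 22072, 20209 and 16890.2 and an SD of 0.058. Cxcl15, a chemokine of lung epithelium, was nearly as even, at 10873, 12138, 12689 and 11764 (SD 0.092). For both, the 4 arrays were close together, as they were for most of the brightest 10% of genes. Sftpa1, which encodes a collectin of surfactant, was less so, at 10252, 9458, 20038 and 16584 (SD 0.55): arrays 3 and 4 were above arrays 1 and 2. The lowest member was Etv5, a transcription factor of type 2 cells, at 645, 524, 2297 and 2330.4, a 4.34-fold range after normalization, again with arrays 3 and 4 high. Sftpb, whose product lets surfactant spread, had a lower place, percentile 82.6, with 1563, 1721, 1473 and 1342 (SD 0.18). Its values were close on all 4 arrays.

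Alveolar type 1 markers had a median percentile of 95.4, with 11 of 11 above the level. After Ager, the highest was Emp2, a membrane protein, at 14350.1, 13921, 14025 and 13303 (SD 0.12). Hopx, a homeodomain protein of type 1 cells, gave 12256, 12193, 11561 and 11499.6 (SD 0.12). Neither had an array that stood out. Rtkn2 was lowest, at 739, 571, 371 and 714, with array 3 low. The type 1 list as a whole was highest on array 1, where its mean log2 value was 12.22, against 11.86 to 11.92 on the others, and after normalization 8 of 11 members were brightest there; over the upper 60% of genes by mean, 23.7% were.

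Club markers had a median percentile of 95.9. Besides Scgb1a1, the highest was Scgb3a2, a related secretoglobin, at 13203, 15862, 19783 and 16862 (SD 0.21). Cyp2f2, an oxidising enzyme of club cells, gave 13520.2, 14485, 15297 and 13336 (SD 0.055). These defining genes were bright on all 4 arrays, while other members differed widely. The brightest 10% of all genes had a median SD of 0.17, so a small SD at this signal does not set a gene apart. Scgb3a1, another secretoglobin, gave 7201, 6619, 17368 and 16010. Cbr2, a carbonyl reductase of lung, gave 7761, 5945, 16538 and 16133. Both had arrays 3 and 4 above arrays 1 and 2 by a factor larger than that between the arrays within either pair. The lowest by mean was Reg3g, which encodes an antimicrobial lectin, at 116, 117, 1349 and 2188, a 19.7-fold range after normalization. Of the 12 club genes, 7 had a range over 1 on the log2 scale, against 10.2% of the upper 60% of genes. A difference of 1 is a factor of 2 between the highest and the lowest array. In normalized values, whose order can differ from that of the intensities above, 10 club genes were brightest on array 4. Over the upper 60% of genes, 24.1% were.

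Ciliated cell markers had a middle place, with a median percentile of 50.1. Above the level lay 7 of 12, a share near the 53.7% of all genes. Tppp3, which binds microtubules, gave 2573, 2071, 2478 and 3138. Dynlrb2, a dynein light chain, gave 1749, 1427, 2509.5 and 3698, with array 4 highest for both. Ccdc39, which sets the spacing along the axoneme, lay at 654 to 902 and Ccdc113, the lowest, at 85.8 to 184. Foxj1, the transcription factor that defines these cells, gave 115, 129.8, 157 and 224, so that array 4 alone exceeded the intensity of the level. After normalization 9 of 12 members were brightest on array 4, against 24.1% of the upper 60% of genes. The list means of 8.34, 8.35, 8.59 and 8.85 spanned only 0.51.

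The other airway types were dim. Of the basal, goblet and neuroendocrine lists, 0 of 6, 1 of 6 and 0 of 6 members lay above the level on every array. Krt5, a keratin of basal cells, gave 622, 127, 89.4 and 108. Trp63, their defining transcription factor, gave 259, 111, 97.9 and 105. Both were high on array 1 alone, the array that was also high in oesophageal keratins. Muc5b, a gel-forming mucin that club cells make too, was the goblet gene above the level, at 539, 724, 1278 and 1410.4, with arrays 3 and 4 high. Muc5ac, the mucin that defines goblet cells, lay at 18.1 to 41.7 and Foxa3, a transcription factor of theirs, at 50.4 to 90.9. Of the neuroendocrine genes, Uchl1 lay at 129.5 to 184, Syp at 79.5 to 125 and Chgb at 12 to 74.3, and Resp18 was under the floor of 14.7 on every array.

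Markers shared by all epithelium had a median percentile of 73.4. Cdh1, the adhesion protein of epithelial junctions, was highest, at 5959, 5772, 6657 and 7045 (SD 0.20). The keratins Krt8 and Krt7 followed, at 3169.9 to 3739 and 2919 to 4249. None of the 3 spanned a factor of 2. Nkx2-1, the transcription factor that specifies lung epithelium and drives the surfactant genes, was the exception, at 67.5, 127, 49 and 58.4 and percentile 21.8. Every array lay below the level, while the surfactant genes it is known to drive were bright.

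Endothelial markers were bright. All 17 shared endothelial genes and all 10 capillary genes lay above the level, with median percentiles of 94.9 and 93.7, and no gene of either list had a range over 1 on the log2 scale, against 10.2% of the upper 60% of genes and 2.97% of the brightest 10%. Their median SDs, 0.25 and 0.24, were no smaller than the 0.23 of the upper 60%. Cav1, which forms the caveolae of capillary walls and of type 1 cells, was highest, at 15447, 16774, 16602 and 14134 (SD 0.053). Ptprb, a phosphatase that restrains endothelial receptors, gave 10018, 10948, 8211 and 8940.5. Its arrays lay close together. Cldn5, the claudin of endothelial junctions, gave 10339, 8844, 8744 and 7745. Tie1, a receptor of the angiopoietin system, was lowest, at 421, 314, 252 and 315. Array 1 was highest for both. After normalization it was the brightest for 13 of 17 shared endothelial genes, against 23.7% of the upper 60% of genes. The list means were 11.90, 11.64, 11.41 and 11.62. That span of 0.49 was small beside the differences in secretory genes.

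Among capillary genes, Aplnr, the apelin receptor, gave 10832, 9647, 6958 and 7816, highest on array 1 and lowest on array 3. Hpgd, which degrades prostaglandins, lay at 11897 to 17020 and Cd93 at 5729 to 8500.5. Apln, the ligand of Aplnr and a marker of another capillary cell type, had the lowest place of the list, percentile 77.8, at 1015, 1374, 1119 and 1086. Of the artery and vein genes, 9 of 12 lay above the level. The arterial ephrin Efnb2 lay at 3814 to 4560, the adhesion protein Vcam1 at 3625 to 4909.6 and Vwf, which binds platelets to vessel walls, at 2872 to 4192. Gja5, an arterial connexin, was under the floor on all 4 arrays. Of the lymphatic genes, Lyve1 lay at 4955 to 6584, Mmrn1 at 1260.5 to 1554 and Flt4, a receptor for lymphatic growth factors, at 506 to 1095. Prox1, the transcription factor that defines lymphatic cells, was dim, at 44.6, 109.9, 51.8 and 47.5, with array 2 apart.

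Fibroblast markers led the mesenchyme, with a median percentile of 88.9 and 13 of 14 above the level. With the mean of a gene's probe sets they did not, at 85.1 against 93.9 for lipid-storing fibroblast and 85.8 for mesothelial genes. Beside Col3a1, the highest fibroblast gene was Inmt, a methyltransferase abundant in lung fibroblasts, at 15257, 16171, 16630 and 15599 (SD 0.082). Npnt, a basement membrane protein, gave 12402, 13619, 11579.9 and 11985 (SD 0.12). Both were even. Pi16, a marker of fibroblasts around vessels, was lowest, at 129.8 to 185. Genes of lipid-storing fibroblasts had a median percentile of 84.8. Lpl, the lipoprotein lipase, lay at 8816 to 12302 and Plin2, which coats lipid droplets, at 4909.5 to 6304. Pparg, the transcription factor of lipid storage, was dim, at 25.5, 28.2, 97.3 and 43.5.

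In the smooth muscle and myofibroblast list, bright and dim genes stood side by side. Pdgfra, the receptor that marks the myofibroblast precursors, gave 5314, 4909.9, 6252 and 6684 (SD 0.26). Aspn, a small proteoglycan, lay at 4361 to 7767. Acta2, smooth muscle actin, gave 6608, 6756, 3481 and 6374. Array 3 stood apart from the other 3, which were close together. Cnn1, a calponin of contractile smooth muscle, was lowest, at 158, 167, 36.3 and 88.3, also with array 3 lowest. Of the 15 genes in this list, 9 lay above the level, near the share of 53.7% for all genes. The median percentile was 59.3.

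Pericyte genes had a median percentile of 75.6. Pdgfrb, the receptor that recruits pericytes to vessels, gave 11526, 14861, 10146 and 8564. Notch3, a receptor of vessel wall cells, gave 6287, 6173, 3796 and 4024, lower on arrays 3 and 4 than on the others. Rgs5, a regulator of G protein signals, lay at 1898 to 2508, and Cox4i2 was lowest, at 115 to 238. Mesothelial genes, of the membrane that covers the lung, had a median of 80.1. Gpm6a lay at 2006 to 2430.1, Msln, mesothelin, at 1546 to 1953 and Upk1b at 1134 to 2319. Wt1, the transcription factor of mesothelium, was dim, at 79.7, 85, 85.5 and 29.3, with array 4 apart.

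The genes that build elastic fibres, the structure that forms at the tips of septa, were high: 10 of 11 lay above the level and the median percentile was 91.7. Eln, which encodes elastin itself, gave 3336, 3303, 2295 and 3675 (percentile 91.7). It was lowest on array 3, the same array that was low in Acta2. Lox, the enzyme that cross-links elastin, gave 5449.9, 6209, 7358 and 5628, highest on array 3. Fbln5, which guides its assembly, lay at 5380.2 to 6462 and Ltbp2 at 4316 to 6562. Fbn2, a fibrillin typical of fetal tissue, was lowest, at 135 to 226.

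Of 28 genes of the signals that direct septation, 21 lay above the level, with a median percentile of 77.6. The highest was Aldh1a1, an enzyme that makes retinoic acid, at 10231, 12148, 12302 and 10385 (SD 0.058). Fgfr3, a receptor for fibroblast growth factors, lay at 2567 to 3467 and the receptor Notch2 at 2316 to 3251. The ligand Pdgfa, which acts on the Pdgfra-bearing precursors, gave 2200, 2496, 1937 and 2276, at percentile 87.9. The lowest was Rara, a retinoic acid receptor, at 33.3, 26.6, 103 and 5.9, under the floor on array 4. The 4 list means, 9.56, 9.55, 9.49 and 9.52, spanned 0.075, the narrowest span of the 46 lists.

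Cell cycle genes were near the middle of all genes, at a median percentile of 49.0, with 13 of 23 above the level, a share close to the background of 53.7%. The highest were genes of DNA replication. Mcm7, a helicase subunit, gave 2085, 1969, 1974 and 1974 (SD 0.028). Pcna, the sliding clamp, lay at 1536 to 2508 and Mcm4, another helicase subunit, at 1016 to 1869. Mki67, which marks cycling cells, gave 545, 434, 448 and 369. Its values were highest on array 1 and lowest on array 4. Kif20a, a kinesin of cell division, was lowest, at 8.5 to 49.

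Monocyte and macrophage genes had the highest median percentile of the immune lists, 65.3, when a gene is read by its brightest probe set. Alveolar macrophage genes were higher with the mean of a gene's probe sets, at 78.4 against 77.2. They were also higher without probe sets ending in _x_at or _s_at, at 66.7 against 64.8. The brightest single gene of the immune lists, S100a8, a calcium-binding protein that fills neutrophils, ranked 41 of all genes, at 15486, 20111, 19556 and 12334. Its partner S100a9 gave 10877, 15006, 12538 and 8129, with array 4 lowest for both. The neutrophil list as a whole did not follow them: its means were 8.83, 8.90, 9.14 and 9.17, highest on array 4. After normalization array 4 was brightest for 5 of its 13 members, against 24.1% of the upper 60% of genes. The neutrophil list had a median percentile of 58.4, with Stfa2l1, a cystatin, at 1294 to 2869.5 and Cxcr2, the chemokine receptor of mature neutrophils, at 44.7 to 95.3. Among monocyte and macrophage genes, Lyz2, a lysozyme that type 2 cells make too, gave 12159, 12711, 18679.5 and 15313. Mpeg1, a pore-forming protein of macrophages, gave 3035, 4827, 7160.4 and 5692. Both were highest on array 3. Csf1r, the receptor for the macrophage growth factor, was even, at 8961, 10149.8, 8834 and 8579 (SD 0.060). Itgam, an integrin of monocytes and neutrophils, was the lowest, at 10.8 to 50.7. After normalization 10 of the 16 genes were brightest on array 3, against 23.3% of the upper 60% of genes.

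Alveolar macrophage genes had a median percentile of 64.0. Chil3, a chitinase-like protein of these cells, gave 11188, 14823, 15793 and 12439.8. Fabp5, a fatty acid carrier, lay at 10846 to 13830.5. Mrc1, the mannose receptor, gave 1393, 1567, 2209 and 2089.9, with arrays 3 and 4 high. Msr1, a scavenger receptor, was lowest, at 110.1 to 227. Genes of antigen presentation by MHC class II had a median of 66.4. H2-Aa, a class II chain, lay at 7712 to 9254 and the invariant chain Cd74 at 1552 to 2348, while their regulator Ciita gave 37.8 to 172.

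Lymphocyte genes were near or below the middle. The B cell list had a median percentile of 47.6, with 7 of 13 above the level, a share near the background. Ighm, the immunoglobulin heavy chain, gave 1051, 1386, 845 and 748, highest on array 2. Ms4a1, the surface protein CD20, lay at 709.8 to 1039.8 and Cd79b, a chain of the B cell receptor, at 341 to 533. The T cell list had a median of 34.4, with 4 of 13 above the level. Il7r, a cytokine receptor, gave 437, 396, 637 and 808, while Cd3e, a chain of the T cell receptor complex, lay at 46.7 to 138 and Cd6 at 7.3 to 25.9. In the natural killer list, with a median of 31.6, Klrd1 was highest, at 308 to 686. Gzma, a granzyme, gave 142, 220, 1500.4 and 417, with array 3 high. Ncr1, which defines natural killer cells, lay at 70.1 to 99.6.

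Dendritic, mast and plasma cell lists had median percentiles of 30.1, 24.3 and 61.4. Their bright members are known in other lung cells too: Gata2, at 2474 to 4042, in endothelium, and Xbp1, at 7488 to 8977, and Sdc1, at 3430.4 to 4145, in secretory epithelium. The mast cell protease Mcpt4 was under the floor on 3 arrays and gave 24.2 on array 4. Ccr7, of migrating dendritic cells, lay at 11.7 to 87.4. The red cell list had a median percentile of 31.3, with 3 of 8 above the level. Only these 8 of its 13 listed genes were matched to a single-symbol probe set. The globin genes Hbb-b1, Hbb-bs and Hbb-bt were not among them, so the list gives no measure of globin RNA as a whole. Of the globins read, Hbb-b2 was at percentile 91.5 and Hba-a1 at 36.3. The highest gene of the list, Alas2, the haem synthesis enzyme, gave 4806, 6142, 2542 and 3993, lowest on array 3. The lowest of those measured, Hba-a2, was at percentile 7.32. The platelet list had a median of 56.0. Pf4, a platelet chemokine, gave 1804, 2385, 3045 and 2154, highest on array 3.

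Interferon-induced genes were among the brightest of the pathway lists. Of 37 measured, 34 lay above the level and 21 in the upper 10% of all genes, with a median percentile of 93.8. Ifi35 ranked 46, at 16693, 19260.3, 16254 and 13317 (SD 0.17). Ifitm3, which blocks entry of viruses, gave 13508, 16017, 12841 and 14419.9 (SD 0.16). Iigp1, a GTPase that acts on vacuoles of parasites, lay at 10146 to 15561. All 3 were bright on every array. The list was not uniform: Cxcl9, a chemokine induced by interferon gamma, gave 18.5, 47.2, 118 and 35.5, the lowest of the list. After normalization array 2 was brightest for 18 of the 37 genes and array 4 for 3, against 28.7% and 24.1% of the upper 60% of genes, and the list means were 11.19, 11.44, 11.33 and 10.94.

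Genes that respond to handling, stress hormone and time of day were read for their spread. Heat shock genes had a median percentile of 90.9, and the chaperones Hspa8 and Hsp90aa1, which all cells make, lay at 16553 to 21909.8 and 8166 to 11111. Glucocorticoid-induced genes had a median of 92.3, with Klf9 at 14018 to 18234, Zbtb16 at 10562 to 15909.8 and Tsc22d3 at 8293 to 10211. Immediate early genes had a median of 79.6. Dusp1, a phosphatase of this class, gave 4925, 6324, 7605 and 7258, with arrays 3 and 4 high, and Jun lay at 4893 to 5214. Clock genes had a median of 70.7. Per1, a repressor in the clock, gave 1964, 1598, 1559.5 and 2379, and Nr1d2 lay at 3567 to 4469.6; neither spanned a factor of 2. The median SDs of these 4 lists lay between 0.23 and 0.29, beside 0.23 for all genes in the upper 60%.

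The spread between arrays was small for most genes and large for a few. Among the 10916 genes in the upper 60% by mean, the median SD was 0.23, a factor of 1.17. A range over 1 was found in 1117 of them, or 10.2%, a range over 2 in 79 and a range over 3 in 19. The spread depended on signal. In the brightest 10% of all genes the median SD was 0.17 and 2.97% had a range over 1, and in the next to dimmest 10% it was 0.82 and 80.8% had one. The most even genes among the upper 20% were Arl3, Fam8a1, Rpl38, Fam13c, Rps28, Eef1a1, Rps10 and Tmbim1. Arl3, a small GTPase of cilia and vesicles, gave 4429, 4590.2, 4578 and 4162 (SD 0.015), and Eef1a1, the elongation factor of translation, 17468, 20558, 20007 and 17155 (SD 0.020).

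**Figure D2:**
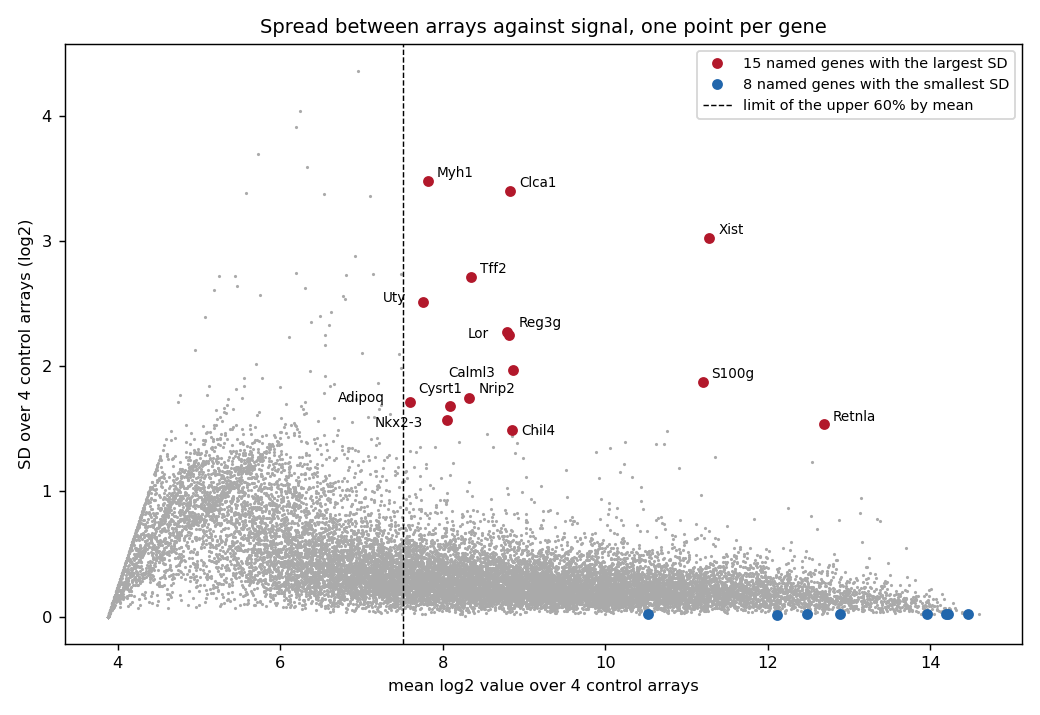
Each point is 1 gene, with its mean log2 value over the 4 control arrays on the horizontal axis and its SD over them on the vertical axis; red and blue points are the 15 and 8 named genes with the largest and smallest SD. The median SD is 0.82 in the next to dimmest 10% of genes and 0.17 in the brightest, and Myh1, Clca1 and Xist stand far above the genes of like signal.

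For the 1117 genes with a range over 1, the 4 values were put in order and split at their widest gap, which shows the arrays that were high. Arrays 3 and 4 together were above the gap in 146 genes, or 13.1%. The set of arrays 1, 3 and 4 came close, with 141, or 12.6%, followed by array 2 alone with 128 and arrays 2, 3 and 4 with 122. Among pairs of arrays, the next was 2 and 3 with 65, and the fewest was 2 and 4 with 10. Among the 79 genes with a range over 2, arrays 3 and 4 were high in 20, or 25.3%, and array 1 alone in 12. These counts describe the 4 arrays and are not a test.

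**Figure D3:**
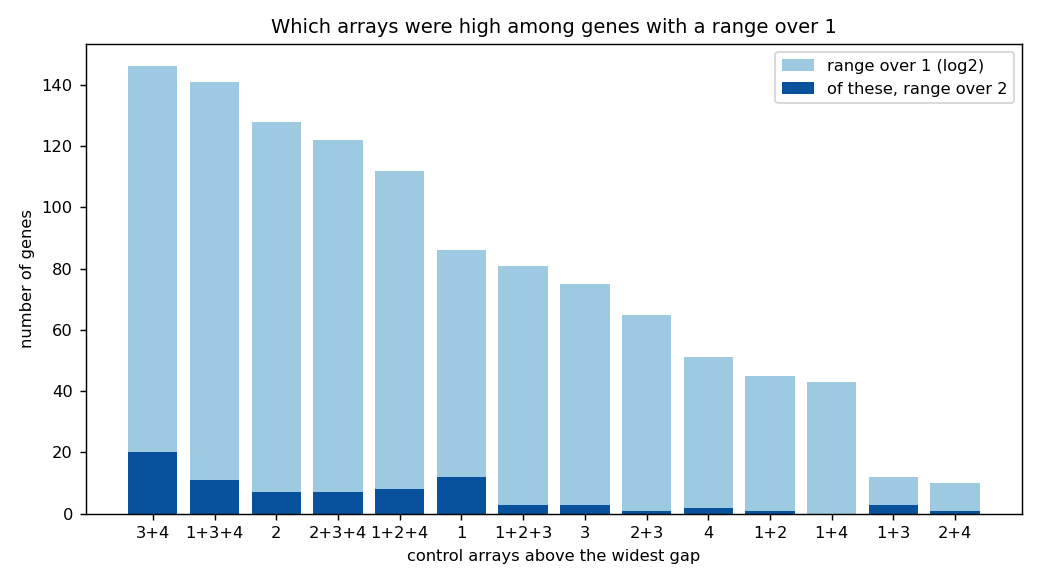
Bars give the number of genes in the upper 60% by mean with a range over 1 (light) and over 2 (dark) on the log2 scale, by the control arrays that lay above the widest gap in the gene's 4 ordered values. Arrays 3 and 4 together have 146 genes, of which 20 had a range over 2, and arrays 1, 3 and 4 have 141.

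The 15 genes with the largest SD fell into 4 kinds by what they are known to do: secretory genes, genes of skeletal muscle and cornified epithelium, a fat gene and sex-linked genes, with S100g, Nrip2 and Nkx2-3 outside all of them. The secretory genes, and S100g, were high on arrays 3 and 4. Clca1, which encodes a protein secreted with mucus, gave 61.4, 54.6, 3401 and 3559.7, a 70.9-fold range after normalization. Tff2, a trefoil peptide that protects mucosa, gave 208, 28.2, 1312 and 1512. Retnla, which encodes the resistin-like protein also called FIZZ1, gave 2344, 3039, 17731 and 15191. For Clca1 and Retnla, arrays 1 and 2 lay close together, well below the other arrays. Chil4, a chitinase-like protein, gave 187, 193, 1407 and 902. S100g, a calcium-binding protein of the cytosol, gave 713, 809, 7909.8 and 6352. In all 5, and in Reg3g, both arrays 3 and 4 were above both other arrays, with no overlap. These genes were picked for their spread on the same arrays, and the share of all genes with this order was not computed. For Tff2, array 1 was also well above array 2, and the widest gap in its normalized values set array 2 alone below the rest.

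The promoters of 11 of these 15 genes were in the RefSeq table (build GRCm38.p6), and 4 of them, Retnla, Chil4, Reg3g and S100g, are shown because they were high on the same 2 arrays. Each line gives the 100 bases before the start site, 5′ to 3′ on the strand of the gene, with TATAAA, the core of the TATA box, in capitals. Retnla lies on the plus strand at chr16:48842509-48842608, Chil4 on the minus strand at chr3:106219480-106219579, Reg3g on the minus strand at chr6:78468875-78468974 and S100g on the minus strand at chrX:162964600-162964699.
Retnla: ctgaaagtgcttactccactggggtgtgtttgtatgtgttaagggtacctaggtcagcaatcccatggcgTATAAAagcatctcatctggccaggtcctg
Chil4: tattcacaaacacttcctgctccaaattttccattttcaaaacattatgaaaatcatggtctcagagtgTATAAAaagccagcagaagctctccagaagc
Reg3g: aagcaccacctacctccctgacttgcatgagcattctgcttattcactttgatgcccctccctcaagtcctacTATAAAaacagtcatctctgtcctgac
S100g: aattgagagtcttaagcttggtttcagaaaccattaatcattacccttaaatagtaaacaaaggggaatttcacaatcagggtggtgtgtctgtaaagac

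The letters TATAAA began 30 bases before the start of Retnla, 31 before that of Chil4 and 27 before that of Reg3g, and are not in the window of S100g. They were searched on both strands. Of the 11 variable genes in the table, 5 held them, and of all 32851 promoters in it 1827 did, or 5.56%. The match is a description of the sequence, and whether a factor binds there was not measured.

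Some lists other than those of secretory cells also had arrays 3 and 4 above arrays 1 and 2. Of the 46 lists, 17 had means on arrays 3 and 4 that were both above those on arrays 1 and 2, and 11 had both below. Differences of any size were counted, such as those of the septation signals, whose means spanned only 0.075. The share of all genes with either order was not computed, so these counts have no background to be read against. The mean log2 values of the club list were 11.03, 11.03, 12.04 and 12.32 on arrays 1 to 4, those of the type 2 list 12.08, 12.01, 12.77 and 12.85 and those of the goblet list 6.17, 5.79, 7.42 and 7.52. In each, arrays 3 and 4 were above arrays 1 and 2. The type 1 list, at 12.22, 11.92, 11.86 and 11.86, and the shared endothelial list, at 11.90, 11.64, 11.41 and 11.62, had the opposite order. So did the capillary, artery and vein, lymphatic, pericyte, fibroblast, smooth muscle and myofibroblast, septation, skeletal muscle and fat lists. Shared epithelial genes, at 9.77, 9.65, 10.20 and 10.20, had the order of the club list, as did natural killer genes, at 6.82, 7.08, 7.60 and 7.51, and dendritic cell genes, at 7.06, 7.03, 7.48 and 7.5. Alveolar macrophage genes, at 9.52, 9.62, 10.09 and 10.02, and monocyte and macrophage genes, at 9.13, 9.30, 9.75 and 9.55, did too, with spans of 0.57 and 0.62. The ciliated, neutrophil and MHC class II lists were also among these. The part of cell composition in the order was not tested.

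**Figure D4:**
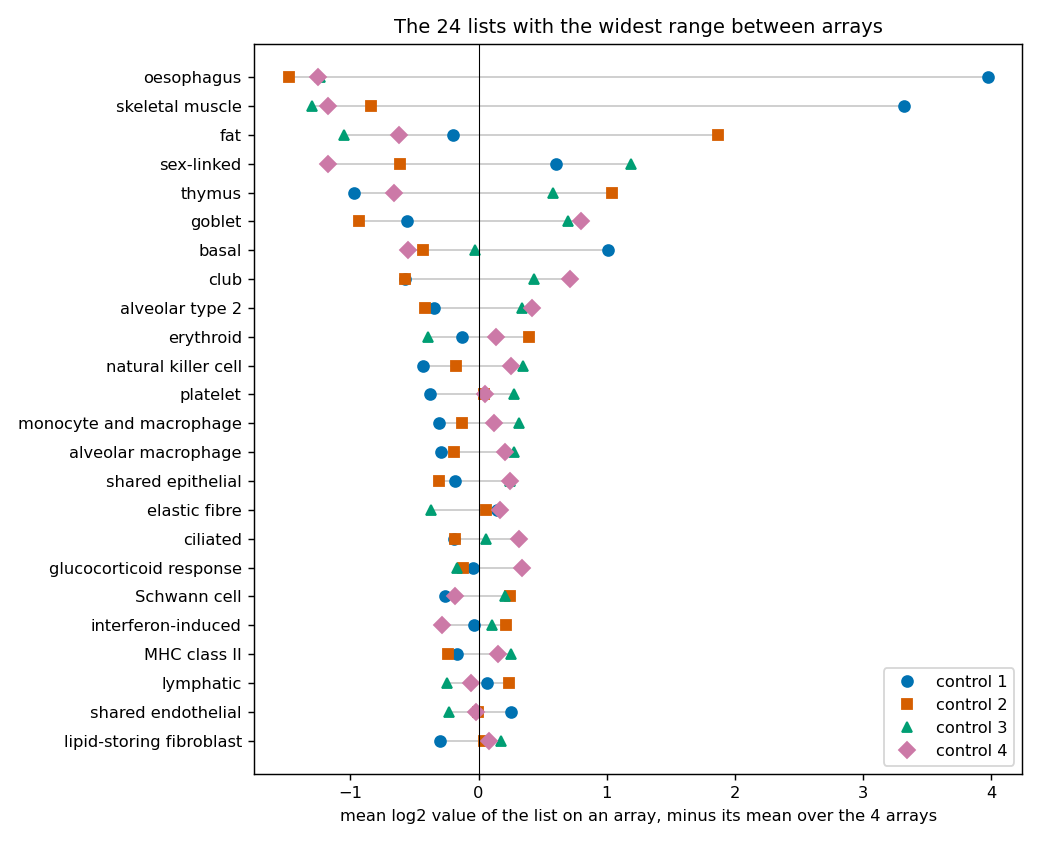
Symbols give the mean log2 value of a gene list on each control array, minus the mean of the list over the 4 arrays, for the 24 lists with the widest range between arrays. Oesophagus and skeletal muscle lists are high on array 1, fat and thymus lists on array 2, and goblet, club and alveolar type 2 lists on arrays 3 and 4.

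Array 1 was the highest in genes of skeletal muscle and cornified epithelium. Myh1, a myosin heavy chain of fast skeletal muscle, gave 6745, 227, 39 and 45.2, a 181-fold range after normalization. The skeletal actin gene Acta1 gave 2496, 4.1, 15.6 and 5.5. Creatine kinase, Ckm, gave 1221, 32.9, 27.5 and 40.9. The other 3 arrays were at or near the floor for Acta1 and below the level for Ckm. Lor, which encodes loricrin of the cornified envelope, gave 4480.2, 244, 137 and 269.6. Calml3, a calmodulin-like protein of stratified epithelium, gave 3357, 164, 242 and 370.2. Cysrt1 gave 1471, 220, 183 and 98.3. All of these were highest on array 1. Without that array the SD of Myh1 was 1.40 in place of 3.48 and that of Lor 0.50 in place of 2.27. The mean of the 9 skeletal muscle genes was 9.39, 5.22, 4.76 and 4.89 on arrays 1 to 4, and that of the 5 oesophagus genes 11.04, 5.59, 5.83 and 5.81. The oesophageal keratin Krt4 gave 4379.8, 64.5, 40.8 and 33.9, and its partner Krt13 1446, 10, 79.5 and 97.7. On array 1 Sprr3 gave 1906, Krtdap 2886 and Krt6a 1259. All 5 oesophagus genes and all 9 skeletal muscle genes were highest on array 1, against 23.7% of the upper 60% of genes. On the other arrays the oesophagus list lay below the median of the genes from outside the chest, 6.30. The largest SD of any gene, regardless of the limit on signal, was that of Lce3f, another cornified envelope gene, at 8609, 127, 13.1 and 11.2. The heart list did not share this order: its means were 8.21, 8.35, 8.51 and 8.65, though 3 of its 12 genes were brightest on array 1. Myh6, a myosin heavy chain of heart, gave 1165, 2089, 2452 and 2773, with array 1 lowest.

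The promoters of Lor, Myh1 and Cysrt1 are shown because they are the genes in the table that were high on array 1 alone. TATAAA, again in capitals, begins 27 bases before the start of Lor and 32 before that of Myh1, and is not in the window of Cysrt1. Lor lies on the minus strand at chr3:92083143-92083242, Myh1 on the plus strand at chr11:67200002-67200101 and Cysrt1 on the minus strand at chr2:25239898-25239997.
Lor: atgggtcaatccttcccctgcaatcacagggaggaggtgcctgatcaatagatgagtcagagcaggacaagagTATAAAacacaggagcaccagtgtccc
Myh1: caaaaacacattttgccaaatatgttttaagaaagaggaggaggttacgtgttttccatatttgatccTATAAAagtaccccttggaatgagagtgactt
Cysrt1: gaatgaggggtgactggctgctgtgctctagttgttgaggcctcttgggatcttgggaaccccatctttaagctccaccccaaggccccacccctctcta

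Array 2 was highest in fat genes. Adipoq, the fat hormone adiponectin, gave 159.7, 908, 54.4 and 169. Fabp4, the fatty acid carrier of fat cells and of some endothelium, gave 1811, 10399, 1323 and 2074. Both were several times higher on array 2 than on any other. Ucp1, the uncoupling protein that defines brown fat, gave 23.6, 643, 15.6 and 12.2, near or under the floor apart from array 2. Cidea, a lipid droplet protein of the same tissue, gave 71.6, 224, 19.7 and 12.4. Without array 2 the SD of Adipoq was 0.96 in place of 1.71. The fat list had means of 7.44, 9.51, 6.59 and 7.02. Thymus genes were highest on array 2 and next on array 3: Rag1, the recombinase of immature lymphocytes, gave 5.6, 811, 522 and 60.8, and the list means were 5.94, 7.96, 7.5 and 6.26. Whether pieces of neighbouring tissue were taken with the lungs was not tested.

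The sex-linked genes divided the arrays in another way. Xist, the transcript that silences an X chromosome in females, gave 297, 16285, 551 and 13835. The Y-linked gene Uty gave 877, 61.5, 1087 and 41.1, Eif2s3y 679, 49.9, 1222 and 27.3 and Kdm5d 555, 81.4, 588 and 41. Arrays 2 and 4 were thus high in Xist and low in all 3 Y-linked genes, and arrays 1 and 3 the reverse, although the labels give no sex. This order differs from that of the secretory, muscle and fat genes. Of the last 2 of the 15 genes, Nrip2, a nuclear receptor partner, gave 627, 57.3, 418 and 766, low on array 2 alone, and Nkx2-3, a homeodomain gene, 755, 543, 175 and 70.2, with arrays 1 and 2 high.

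**Figure D5:**
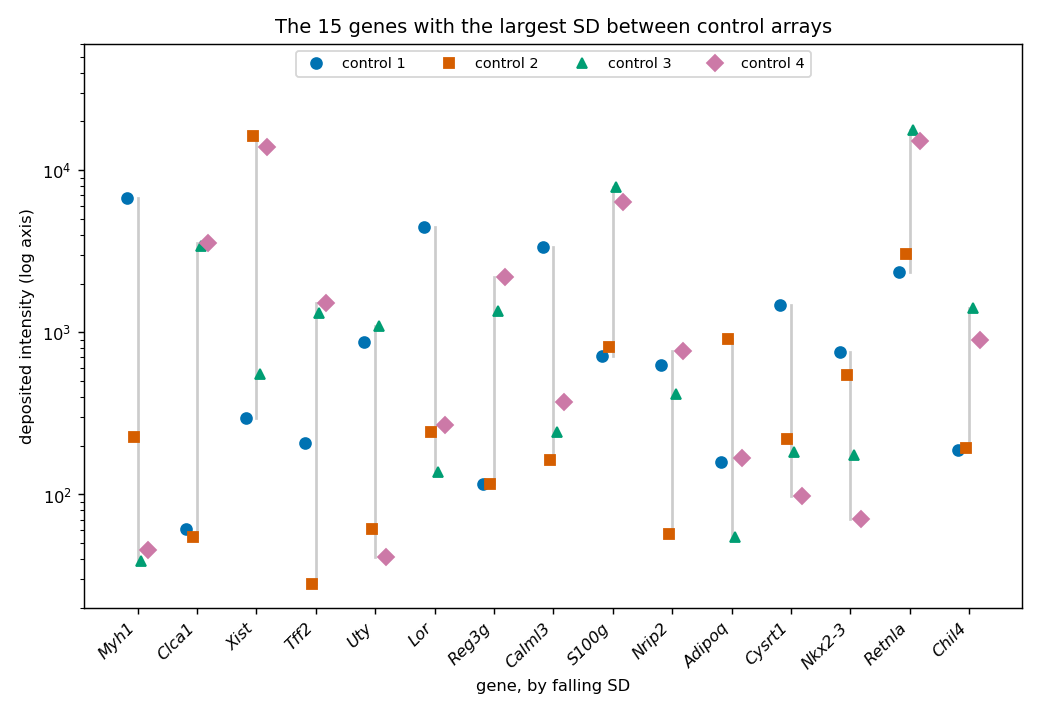
Symbols give the deposited intensity, on a log axis, of the 15 genes with the largest SD in each of the 4 control arrays; grey lines join the lowest and highest. Clca1, Tff2, Reg3g, S100g, Retnla and Chil4 are high on arrays 3 and 4, Myh1, Lor, Calml3 and Cysrt1 on array 1, Adipoq on array 2, and Xist on arrays 2 and 4.

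Other probe sets bore on how far these values can be read. Of the 18193 genes, 9010 had 2 or more probe sets, and the brightest and dimmest of a gene differed by a median of 2.73 on the log2 scale. For several of the genes above, a second probe set was high on the same arrays. That for Xist gave 55.2, 6937, 82.2 and 7195. That for Myh1 gave 5858, 150.1, 43.8 and 4.7. That for Krt4 gave 7962, 28.6, 12.9 and 35.6, and that for Fabp4 1374, 8073, 971 and 1501. The order among the low arrays differed in some of them. The second for Clca1 was dim, at 54.2, 46.5, 78.0 and 77.3, so its range rests on 1 probe set. One of the 2 other probe sets for Nkx2-3 lay at 62.5 to 86.0 and the other at the floor. Sftpc has a second probe set at 43.7 to 114.6, far below the first, so a rank depends on the probe set that stands for a gene.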

How the data were processed

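The deposited values are intensities, 1 for each probe set, scaled to a trimmed mean of 500 on each array (computed from the values); the program that summarised the probes is not given in the sources used here. Genes were named from the platform annotation, and 0 symbols were updated through the RefSeq table (GRCm38.p6). The single intensity of 0 was replaced by the lowest one above 0. The 4 control arrays were put on the log2 scale, quantile normalized, and floored at the 10th percentile, an intensity of 14.7. The 64 control probe sets took part in these steps and were left out afterwards. A gene is its single-symbol probe set with the highest mean. Promoters are from RefSeq GRCm38.p6.

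The members and the gene lists were chosen with earlier results of these data known. Of 552 listed symbols, 512 were matched. Genes to be named were those of the 30 brightest probe sets, and of each list the 3 highest, the lowest and any absent defining marker. Also included were the 15 genes with the largest SD in the upper 60% by mean and the 8 with the smallest in the upper 20%. The sex-linked list and the 4 most variable of each of the 4 lists with the largest median SD completed the set. The text gives no values for some of them, such as Mfap4, Kdr, Bcl11b, Cd8a and Nkg7. Sftpb, Scgb3a1, Cbr2, Eln, Pdgfa, Mki67, Cd3e and Lce3f were chosen after their values were seen. No test of a difference was run, since the arrays form 1 group, and Dixon's ratio was used only to find single arrays that lie apart; their number limits the precision. The calculation was tested on simulated data. Python 3.11.15, numpy 2.4.6, pandas 2.3.3 and matplotlib 3.10.9 were used. Alternatives were another normalization, floor, level, filter and rule for a gene's probe set, and leaving out each array.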

Additional observations from a re-analysis of the deposited data

Results flagged for a closer look

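For each named gene and each list mean, the gap between the highest or lowest array and the nearest other was divided by the range of the 4 normalized values. Chance puts about 1 in 20 such ratios above Dixon's critical value. Among 212 named genes, 23 exceeded it, or 10.8%, as did 4 of 46 list means and 2 of 16 probe sets without a single symbol. Some of these genes were named for their large spread between the same arrays, so this share cannot be read against chance. In the upper 60% of all genes it was 482, or 4.42%.

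Array 1 was high in Acta1 (ratio 1), Ckm (0.887), Myh8 (1), Krt4 (0.877), Krt5 (0.830), Krt6a (0.834), Trp63 (0.899) and Cldn5 (0.895). It was also high in the list means of oesophagus (0.957), skeletal muscle (0.901) and alveolar type 1 markers (0.836). A ratio of 1 arises where the other 3 arrays had the same value, most often the floor. The normalized values of Acta1 spanned 7.39 on the log2 scale, those of Krt5 2.80, those of Trp63 1.46 and those of Cldn5 0.40.

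Array 2 was high in Ucp1 (0.848), Prox1 (0.898), Sftpc (0.930) and Tmbim1 (0.907), and low in Cyp2f2 (0.873) and in the B cell list mean (0.963). Array 3 was low in Acta2 (0.904), Comp (0.926) and Csf1r (0.936), and high in Krt17 (1) and Rpl38 (1). Array 4 was low in Col9a1 (0.870), Myl2 (0.881) and Wt1 (0.917), and high in Cnmd (1) and Mcpt4 (1). Of the brightest probe sets without a single symbol, 2 were low on array 3, each with a ratio of 1. Sftpc, Tmbim1, Cyp2f2, Csf1r, Rpl38 and both of these probe sets had small ranges, so the ratio there rests on small differences.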

How the results depend on the processing

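The order of the 4 compartments depended most on which probe sets stood for a gene. With the mean of a gene's probe sets, the median percentile was 80.6 for epithelial, 75.9 for mesenchymal and 52.5 for immune markers, so epithelial lay above mesenchymal. Without probe sets ending in _x_at or _s_at, it was 90.2 for vascular, 71.6 for epithelial, 64.9 for mesenchymal and 45.2 for immune markers, with epithelial again above mesenchymal. With no filter on signal the median SD was 0.29 and 4958 genes had a range over 1; in the upper 40% by mean these were 0.21 and 481. Leaving out 1 array gave 671 to 776 genes with a range over 1 (671 without array 2, 687 without array 1), as fewer arrays give smaller ranges, and median SDs of 0.21 to 0.22. Of 506 list medians under the alternatives, 46 were classed as moved. Counted separately, 18 changed by over 10 points. Some of these, such as that of oesophagus without array 1, were not classed as moved. Of 150 SDs of the most variable genes, 11 moved: without array 1 those of Lor, Myh1, Calml3 and Cysrt1 were 0.50, 1.40, 0.57 and 0.60; without array 2 those of Tff2, Nrip2 and Adipoq were 1.57, 0.40 and 0.96; and with the mean of probe sets those of Clca1, Nkx2-3, Nrip2 and Myh1 were 1.87, 0.51, 0.96 and 2.30. The cause was not tested. Dim genes limit the spread, since 361 genes were at the floor on every array.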
